A study of Mus musculus with 76 samples.

Results

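Proteasome subunit genes were read in single interneurons of the neonatal mouse hippocampus, as the 39 genes whose symbols start with Psma, Psmb, Psmc or Psmd and end in a number, of 35825 genes measured. In this symbol set 7 genes encode the alpha ring of the core particle, 7 its beta ring, 3 the immunosubunits, 2 the germ line or thymus forms, 6 the ATPases of the regulatory particle, 3 its other base subunits, 8 its lid and 3 the chaperones that assemble the base. The cells came from slices of postnatal day 4 pups, male and female, that were either GPHN WT or carried GPHN S268/270A, in which serines 268 and 270 of the synaptic scaffold gephyrin are replaced by alanine (Mut). Pups of both genotypes were on an Nkx2.1-Cre;Ai14 background, in which Cre switches on the red reporter tdTomato in cells descended from the medial ganglionic eminence (MGE), so that the reporter marks a lineage and not 1 cell type. Red cells of dorsal CA1 were patched, the cell content was drawn into the pipette, and each sample is 1 cell. The 67 cells that passed the authors' quality filter comprised 62 without a contamination mark and 5, all WT, that the labels call contaminated. Among the 62 were 28 WT cells, 9 female and 19 male, and 34 Mut cells, 19 female and 15 male. The 5 were 1 female and 4 male cells. The labels name no animal, so a genotype and sex together give 1 summed library, and cells are not replicates of a condition.

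The proteasome degrades proteins tagged with ubiquitin and supplies most of the regulated protein breakdown of a neuron, including that of synaptic proteins. Its core particle is a barrel of alpha and beta rings, and the beta subunits Psmb5, Psmb6 and Psmb7 carry the chymotrypsin-like, caspase-like and trypsin-like cutting sites. The regulatory particle caps the barrel: its ATPases unfold substrates, its base and lid subunits bind and remove ubiquitin. In immune cells, and in other cells exposed to interferon, Psmb8, Psmb9 and Psmb10 take the places of Psmb5, Psmb6 and Psmb7, and the resulting immunoproteasome favours peptides for antigen presentation. When proteasome activity falls, the transcription factor Nfe2l1 raises subunit genes through antioxidant response elements in their promoters.

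The 250 bases before the RefSeq start (GRCm38.p6) are printed for the immunosubunits, for Psmb5 and Psmb6, which Psmb8 and Psmb9 replace, and for Psmc2, the ATPase gene with the smallest edgeR p for genotype below. Sequences run 5′ to 3′ on the gene's strand. Capitals mark a match to the antioxidant response element core, searched on both strands as TGACNNNGC or TGAGNNNGC.
Psmb8, chr17:34197945-34198194, plus strand: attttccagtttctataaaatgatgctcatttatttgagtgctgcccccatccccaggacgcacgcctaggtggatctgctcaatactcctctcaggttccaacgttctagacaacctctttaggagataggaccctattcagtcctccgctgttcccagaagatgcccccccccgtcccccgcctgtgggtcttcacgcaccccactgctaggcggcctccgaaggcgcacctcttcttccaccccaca
Psmb9, chr17:34187331-34187580, minus strand: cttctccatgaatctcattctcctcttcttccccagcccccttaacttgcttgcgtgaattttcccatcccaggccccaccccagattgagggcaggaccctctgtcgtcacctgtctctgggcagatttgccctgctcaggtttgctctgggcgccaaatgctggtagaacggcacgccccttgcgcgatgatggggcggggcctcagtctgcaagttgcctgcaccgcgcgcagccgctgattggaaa
Psmb10, chr8:105938393-105938642, minus strand: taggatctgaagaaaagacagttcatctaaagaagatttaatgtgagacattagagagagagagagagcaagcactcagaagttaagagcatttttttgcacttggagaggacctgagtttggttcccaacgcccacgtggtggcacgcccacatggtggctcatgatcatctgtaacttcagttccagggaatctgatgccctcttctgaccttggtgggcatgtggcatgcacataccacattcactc
Psmb5, chr14:54617996-54618245, minus strand: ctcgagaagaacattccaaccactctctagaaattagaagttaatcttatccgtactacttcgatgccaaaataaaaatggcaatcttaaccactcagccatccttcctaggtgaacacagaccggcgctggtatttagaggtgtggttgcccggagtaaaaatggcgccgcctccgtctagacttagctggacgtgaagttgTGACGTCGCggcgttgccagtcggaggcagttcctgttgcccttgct
Psmb6, chr11:70525107-70525356, plus strand: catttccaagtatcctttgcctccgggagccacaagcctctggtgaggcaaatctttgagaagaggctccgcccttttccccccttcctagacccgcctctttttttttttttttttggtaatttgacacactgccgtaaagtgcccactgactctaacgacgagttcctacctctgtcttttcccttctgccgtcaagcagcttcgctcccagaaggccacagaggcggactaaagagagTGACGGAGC
Psmc2, chr5:21786497-21786746, plus strand: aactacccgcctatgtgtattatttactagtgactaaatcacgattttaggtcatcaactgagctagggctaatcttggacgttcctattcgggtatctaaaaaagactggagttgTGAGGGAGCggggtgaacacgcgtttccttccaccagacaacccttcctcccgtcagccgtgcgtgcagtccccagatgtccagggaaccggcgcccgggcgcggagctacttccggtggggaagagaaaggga
Psmb5 and Psmb6 held TGACNNNGC and the second start of Psmc2 held TGAGNNNGC, while its first start held neither. None of the 3 immunosubunit windows held these letters. By the GENCODE gene spans on GRCm38, which take in every annotated transcript, the windows of Psmb8 and Psmb9 and that of the second start of Psmc2 lay wholly inside the gene, with 250 of 250 bases, and that of Psmb10 with 52. The sequence before the outermost start of Psmb8 and Psmb9 was thus not searched. Of the 39 genes, 32 had a promoter in the RefSeq table. Either form was found in 11 of the 32 (34.4%), against 25.7% of 27025 genes in the table. TGACNNNGC alone was found in 5 (15.6%, against 11.5%) and TGAGNNNGC in 8 (25.0%, against 16.3%), and no match of one form can be a match of the other at the same bases. The core of the interferon-stimulated response element, searched on both strands as GAAA, any 2 bases and GAAA again, was found in Psmb3, Psmd4 and Psmd9 (9.38% of the 32, against 3.46%) and in none of the 3 immunosubunits.

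Total estimated counts per cell ran from 2946456 to 12070780, and no pair of cells held identical values. Of 6 MGE interneuron markers (Lhx6, Gad1, Gad2, Slc32a1, Sox6 and Nkx2-1), the median unmarked cell carried 4 at 10 CPM or more (CPM, counts scaled to the cell's total), and 34 of the 62 carried 4 or more. Of 11 microglial markers the median unmarked cell carried 0, but 6 unmarked cells carried 4 or more. In the contaminated cells 10 or 11 of the 11 were present. A point mutation leaves the gene's counts in place, so the counts do not check the genotype label.

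Levels were compared between genes in the authors' TPM, which correct for transcript length. Core particle subunits were the most abundant of the family. Among the alpha and beta ring genes the median level over the 62 unmarked cells lay between 120 TPM (Psmb7) and 1080 TPM (Psmb6), and the middle of these 14 medians was 354 TPM. Psmb6 stood first with a median of 1080 TPM (10.4 to 3148 over cells). Psma7, an alpha ring subunit, followed with 779 TPM (4.18 to 2923), and Psma3, whose tail helps to close the gate of the ring, with 645 TPM (7.11 to 2467). The ranges of these 3 genes over cells overlapped almost wholly, so their order describes medians only. In CPM, which do not correct for length, Psmb6 again ranked first and Psma3 moved ahead of Psma7. Psmb5 had a median of 457 TPM and Psmb7 of 120 TPM, so the lowest core subunit was also a catalytic one.

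The regulatory particle genes were lower, with medians from 75.4 to 295 TPM and 184 TPM in their middle. The 6 ATPases ran from 120 TPM (Psmc6) to 295 TPM (Psmc4). Of the base scaffold and receptor genes, Psmd1 had 119 TPM, Psmd2 149 TPM and the ubiquitin receptor Psmd4 206 TPM. In the lid, Psmd8 was highest (274 TPM), the deubiquitinase Psmd14 had 184 TPM, and Psmd3 was the lowest structural subunit of either particle (75.4 TPM). Within a cell, the mean TPM of the 14 core genes was above that of the 17 regulatory genes in every unmarked cell, by a ratio of up to 5.73 with a median of 2.02. The largest ratio belonged to WT female cell 7, in which Psmb5 alone reached 2031 CPM. The base assembly chaperones had low medians: Psmd9 had 12.8 TPM, Psmd5 2.52 TPM and Psmd10 0.432 TPM. Their highest cells reached 533.7, 546.4 and 202.5 TPM in that order, so the low medians do not hold for every cell. The tissue-restricted forms were at or near background, with Psmb11, of the thymic cortex, at 0.0552 TPM and Psma8, of the male germ line, at 0 TPM with no count in 60 of 62 cells.

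**Figure D1:**
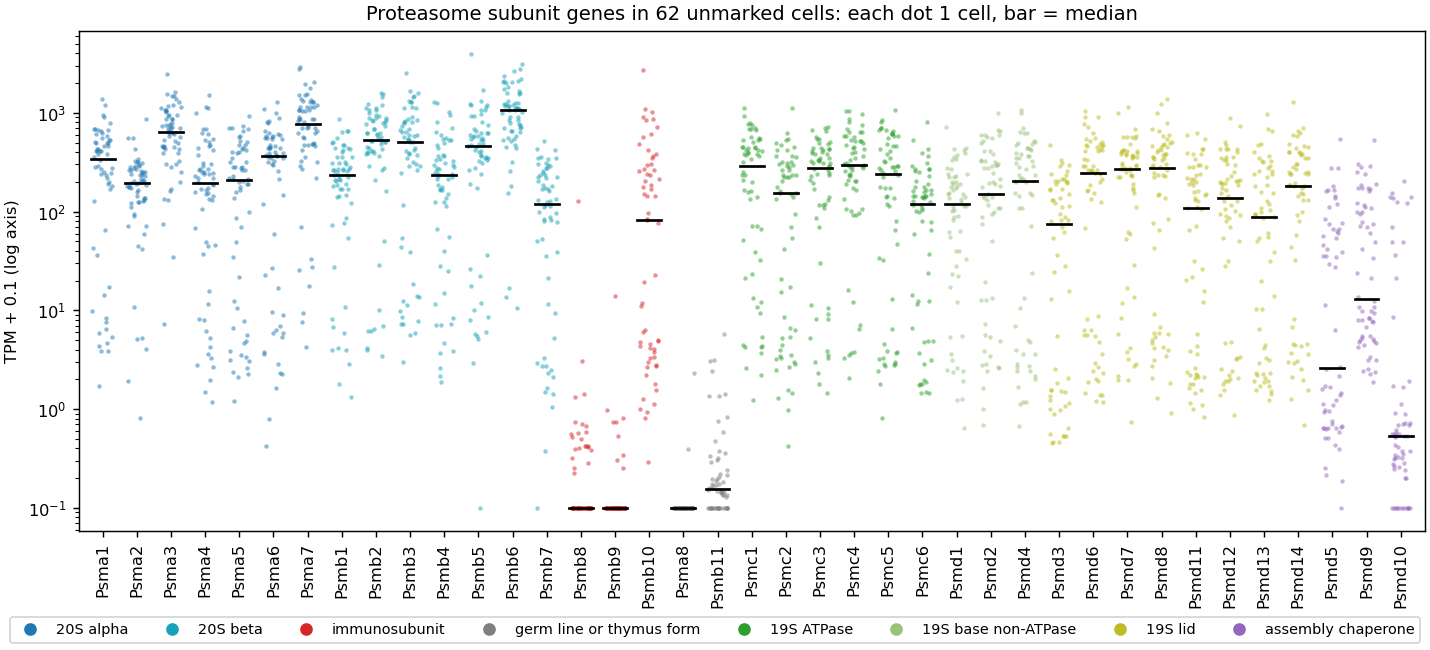
Level of each subunit gene in TPM plus 0.1 on a log axis, with 1 dot per unmarked cell (62) and a bar at the median, coloured by class. Psmb6, Psma7 and Psma3 have the highest medians, and the medians of the assembly chaperones lie far below those of the particle subunits. Psmb8, Psmb9 and Psma8 lie at 0 in most cells.

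Each subunit gene was below 10 CPM in some cells. At 10 CPM or more, the most widely carried genes were Psma3 (60 of 62 unmarked cells), Psmb6 (59), Psma2 (58) and Psma7 (58). The least widely carried of the 31 constitutive particle genes of this symbol set (14 core and 17 regulatory) was Psmd13, in 37 cells. Low values were seldom true zeros: of the 1922 values that the 31 genes had in 62 cells, 0.104% were 0 counts, 4.68% lay above 0 and under 10 counts, 19.1% at 10 to under 100 and 76.1% at 100 or more. A cell below 10 CPM for a subunit thus nearly always held reads of it, as the lower cloud of dots in the plot of TPM shows.

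The median unmarked cell carried 27 of the 39 genes at 10 CPM or more, with a range of 10 to 35. Female cells had medians of 27 in WT (10 to 33) and 24 in Mut (12 to 35), and male cells of 29 in WT (13 to 34) and 29 in Mut (17 to 35), so the ranges overlapped throughout. All 14 core genes were present together in 18 of 62 cells (29.0%, 95% exact Clopper-Pearson interval 18.2 to 42.0), all 6 ATPases in 25 (40.3%, 28.1 to 53.5), and all 31 genes in 8 (12.9%, 5.74 to 23.9). The number of subunit genes in a cell went with the number of all genes it carried at that limit (Pearson r = 0.859 and Spearman rho = 0.878 over 62 cells), and less with its total counts (r = 0.396). Both counts come from the same library, and these correlations describe cells and not conditions. Between pairs of subunit genes the CPM values scarcely moved together over cells, with a median Spearman rho of 0.058 within the core particle (91 pairs), 0.091 within the regulatory particle (136 pairs) and 0.070 between them (238 pairs). Single pairs ran from -0.346 to 0.497, and these values describe the cells, with no test.

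**Figure D2:**
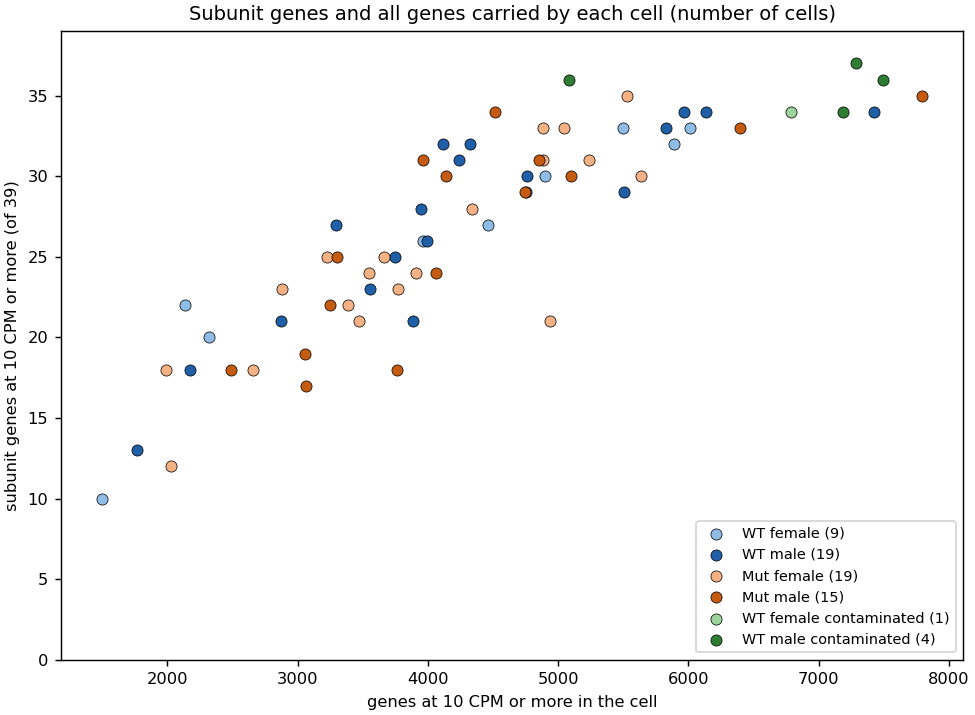
Number of the 39 subunit genes at 10 CPM or more in each cell (vertical axis) against the number of all genes at that limit (horizontal axis), 1 dot per cell, coloured by group. Cells with few genes hold few subunit genes, and the 5 contaminated cells lie at the upper right with 34 to 37 subunit genes.

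**Figure D3:**
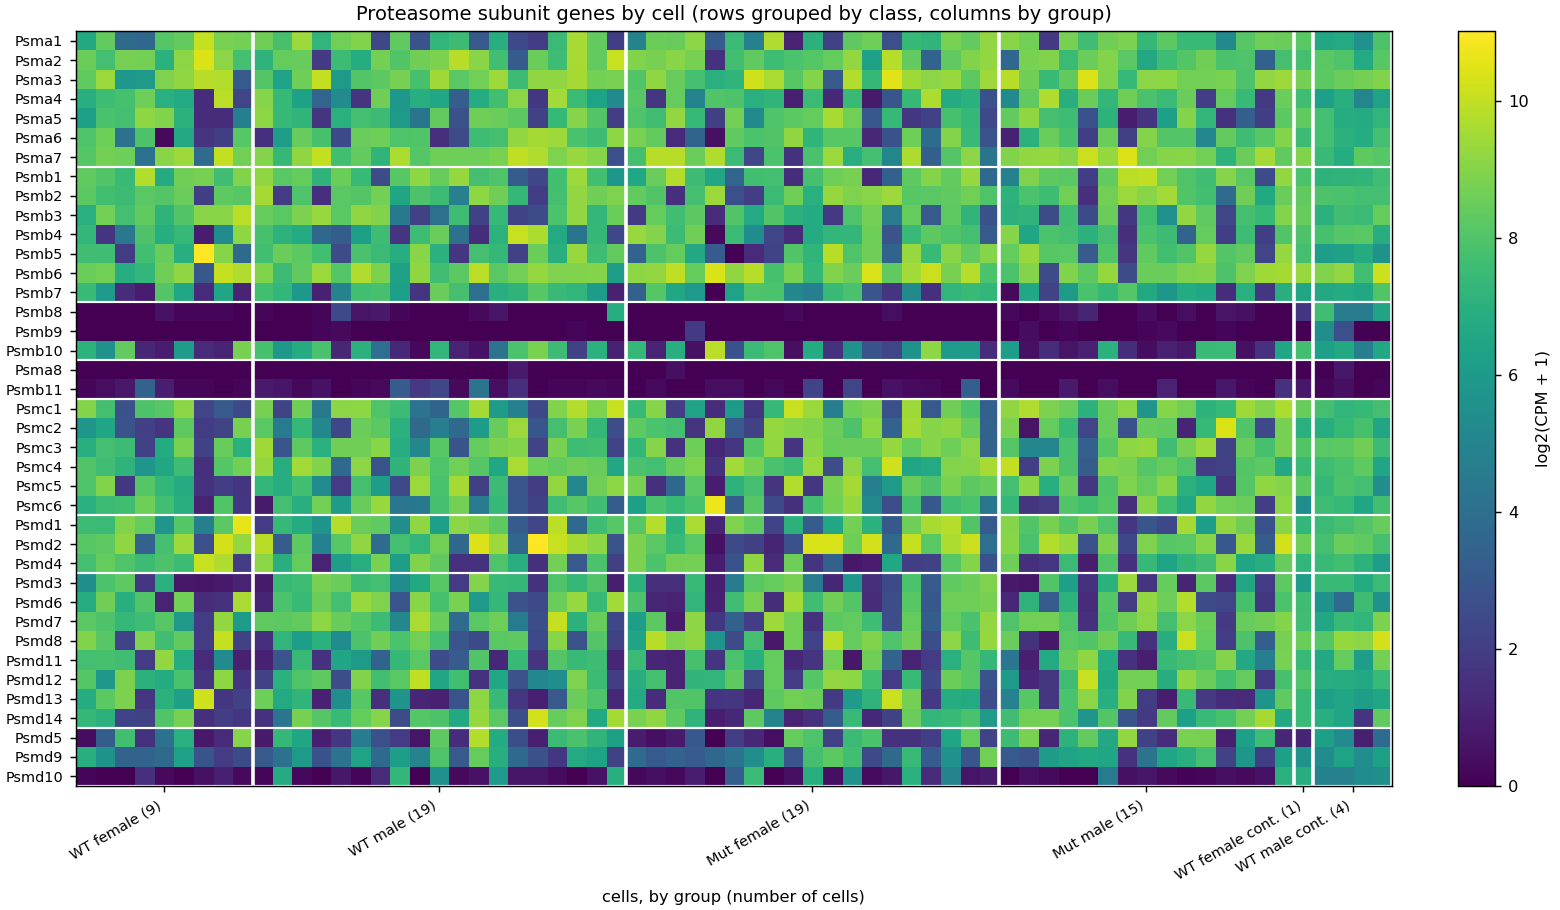
Level of every subunit gene in every kept cell as log2(CPM + 1), genes in rows by class and cells in columns by group, with white lines between classes and groups. Psmb8, Psmb9, Psma8 and Psmb11 form dark rows through the unmarked cells, and dark cells are scattered through all other rows.

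The immunosubunits split into 1 gene that many interneurons carried at 10 CPM or more and a pair that hardly any did. Psmb8 (chr17:34197721-34201454 of GRCm38, plus strand) reached 10 CPM in 1 of 62 unmarked cells (1.61%, interval 0.0408 to 8.66). Its median was 0 CPM in WT cells of either sex (0 to 0.433 in females, 0 to 114 in males) and in Mut females (0 to 0.322), and 0.169 CPM in Mut males (0 to 1.24). The cell at 114 CPM, WT male cell 20, held 877 Psmb8 counts, had none of the 11 microglial markers at 10 CPM (summed level 12.4 CPM) and carried 18 subunit genes. Psmb9 (chr17:34181987-34187764, minus strand), whose exons overlap those of Tap1 on the opposite strand, reached 10 CPM in 0 of 62 cells, so that a share of as much as 4.84% remains possible if 3 cells are taken as the limit, or 5.78% by the exact interval. Its highest value was 2.66 CPM, in a Mut female cell. At the limit of 10 CPM both genes were therefore close to undetected, while Psmb10 was not.

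Psmb10 (chr8:105935735-105938444, minus strand) reached 10 CPM in 33 of 62 unmarked cells (53.2%, interval 40.1 to 66.0). In females it was carried by 5 of 9 WT cells (median 49.6 CPM, 0.866 to 430) and 11 of 19 Mut cells (48.8 CPM, 0.377 to 931). In males it was carried by 12 of 19 WT cells (57.6 CPM, 0.178 to 452) and 5 of 15 Mut cells (1.70 CPM, 0.306 to 181). All 4 groups hold both cells near 1 CPM and cells above 100 CPM, and the Mut male median falls among the former. By comparison, Psmb7, which Psmb10 replaces, was at 10 CPM or more in 46 of 62 cells, Psmb5 in 51 and Psmb6 in 59. In TPM the median of Psmb10 (82.9) was below that of Psmb7 (120), and its highest cell reached 2743 TPM.

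**Figure D4:**
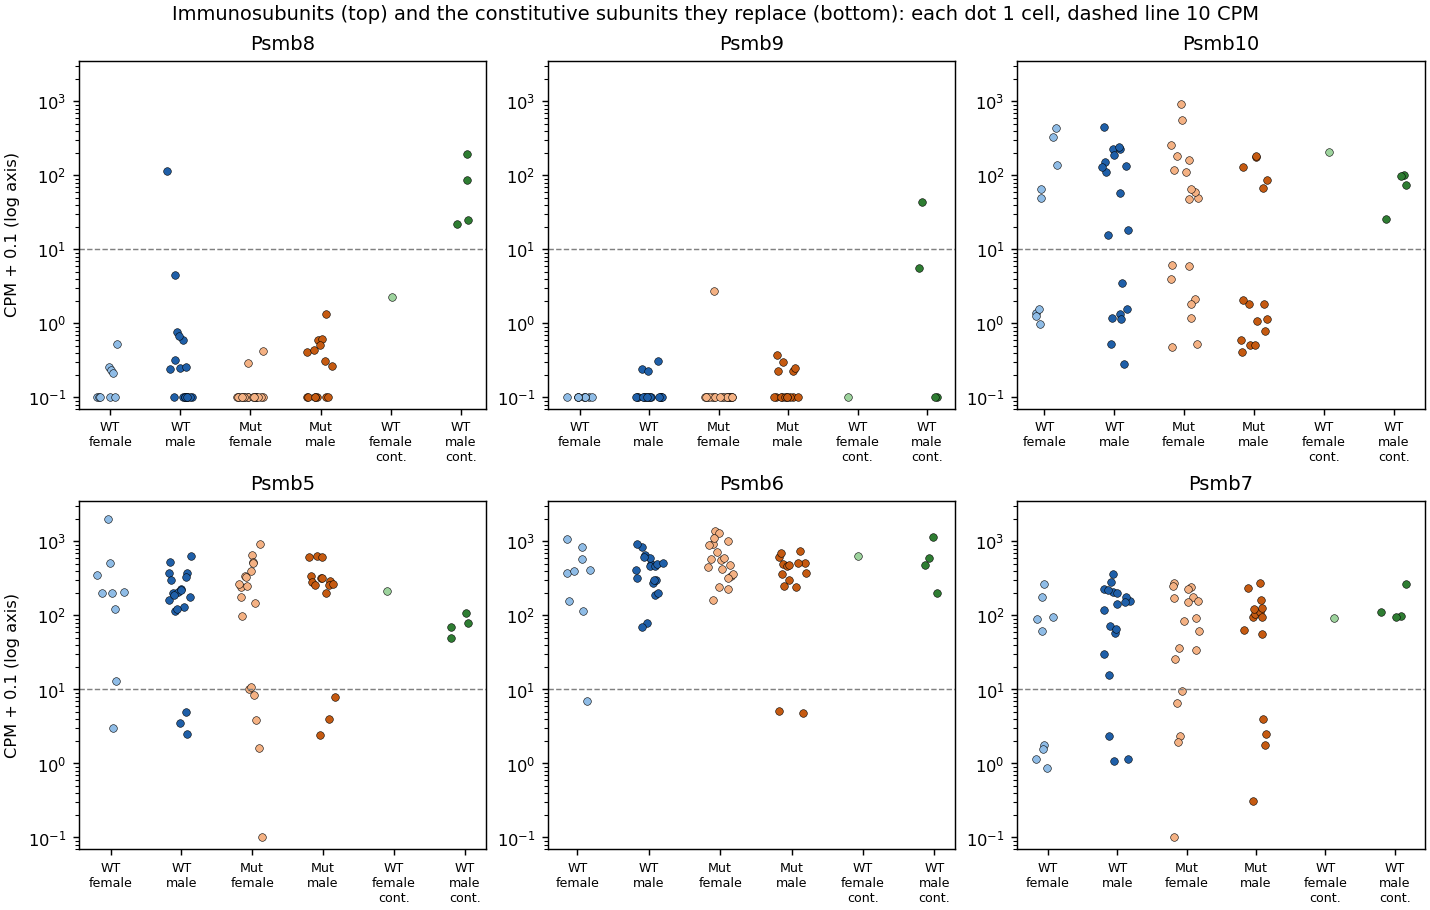
Psmb8, Psmb9 and Psmb10 (top row) and the constitutive subunits Psmb5, Psmb6 and Psmb7 (bottom row) in CPM plus 0.1 on a log axis, 1 dot per cell by group, with a dashed line at 10 CPM. Psmb8 is above the line in 1 unmarked and 4 contaminated cells, Psmb9 in 1 contaminated cell, and Psmb10 in cells of every group.

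In males, Psmb8 and Psmb9 were higher in the sum of the cells marked as contaminated than in that of the unmarked WT cells, and for each the size of the difference moved when 1 cell was left out. Psmb8 stood at 196, 24.6, 21.9 and 85.3 CPM in the 4 WT male contaminated cells and at 2.18 CPM in the WT female one. All 4 male cells were thus above 18 of the 19 unmarked WT male cells and overlapped with cell 20. Psmb9 stood at 43.7, 5.44, 0 and 0 CPM in the same male cells, in that order, and at 0 in the female cell, so it was high in 1 cell. Psmb10 stood at 73.1, 101, 25.5 and 97.2 CPM in the male cells and 205 CPM in the female cell, all within the range of unmarked WT cells. In the summed libraries, scaled together, Psmb8 was 94.7 CPM in contaminated (Poisson interval 90.9 to 98.6) and 6.86 CPM in unmarked WT male cells (6.43 to 7.32), a difference of 3.61 on the log2(CPM + 1) scale. It was 2.76 without contaminated cell 1 and 6.21 without unmarked cell 20, an omission chosen after seeing the data. Psmb9 was 13.9 CPM (12.5 to 15.4) against 0.0225 CPM (3 counts, 0.00465 to 0.0658), a difference of 3.87 that fell to 1.45 without contaminated cell 1. Psmb10 differed by -0.26. With 1 summed library a group there is no test of these values, and intervals cover counting error only, since reads copied by PCR without molecular identifiers are not independent molecules.

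The other subunit genes differed in both directions between contaminated and unmarked WT male cells. The median difference of the 37 genes that passed the filter on low counts was -0.19, beside -0.03 over all 17193 genes compared, and 14 of the 37 lay above 0, as 47.9% of all genes did. A difference of 1 or more was reached by 3 of the 37, where 21.8% of all genes reached it, and -1 or less by 5, where 24.1% did. The 3 were Psmb8, the lid genes Psmd8 (2.25) and Psmd11 (1.53), and the 5 were Psmd6 (-1.61), the assembly chaperone Psmd5 (-1.50), Psmb5 (-1.33), Psmb11 (-1.13) and Psmd14 (-1.03). With the libraries scaled by their totals alone the median of all genes moved to -0.20 and that of the subunit genes to -0.50. The constitutive counterparts of the immunosubunits did not share a direction. Psmb5, which Psmb8 replaces, was at 85.5 CPM in the contaminated male sum and 216 CPM in the unmarked one, and differed by -0.90 in females. Psmb6, which Psmb9 replaces, was at 692 against 396 CPM in males, a difference of 0.80, and differed by 0.46 in females. Psmb7, which Psmb10 replaces, was at 163 against 120 CPM, a difference of 0.45, and differed by 0.30 in females. Among the other subunit genes the largest difference in males was that of Psmd8, at 775 against 162 CPM.

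Genes of interferon signalling and antigen presentation had a larger median difference than the subunit genes in the same comparison. Of 10 such genes 9 were higher by 1 or more in contaminated WT male cells, where 21.8% of all genes were, and their median was 5.02. In the single contaminated female cell 6 of the 10 lay above and 4 below the unmarked female sum, with a median of 1.68, and H2-K1, a class I heavy chain, was at 0 against 13.2 CPM. In males Tap1, the peptide transporter gene that overlaps Psmb9, was at 41.9 against 3.23 CPM, and B2m, the light chain of class I molecules, at 1239 against 23.8 CPM. The 11 microglial markers summed to between 11644 and 13747 CPM in the contaminated male cells, to 3592 CPM in the female one, and to a median of 47.6 CPM (6.01 to 1469) in unmarked WT male cells. Their part in the Psmb8 and Psmb9 values was not tested. Of the 6 unmarked cells with 4 or more of the markers, 4 had 0 counts of Psmb8, among them Mut female cell 20 with the highest marker sum (7493 CPM). WT male cell 6 (1469 CPM) held 21 counts of Psmb8 (4.41 CPM) and 1 of Psmb9, and WT female cell 6 (954 CPM) held 1 count of Psmb8.

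Contaminated cells also carried more subunit genes, with a median of 36 of 39 (34 to 37), and all 31 constitutive particle genes were at 10 CPM or more in 4 of the 5. They carried more genes of every kind: 5083 to 7495 at 10 CPM or more, beside a median of 4030 (1499 to 7795) in unmarked cells. As a share of the genes carried, the subunit genes made up 0.473% to 0.708% of them in contaminated and a median of 0.642% (0.425% to 1.03%) in unmarked cells, so the 2 ranges overlapped.

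Between genotypes no subunit gene passed the test. The comparison asks whether cells with mutant gephyrin differ from WT cells over both sexes, and it used edgeR's quasi-likelihood test on the 4 summed libraries with sex as a covariate, which leaves 1 residual degree of freedom. Psma8 and Psmb9 had too few counts to be tested. Of the other 37 genes 0 were higher and 0 lower in Mut at a Benjamini-Hochberg adjusted p under 0.05, where 0.0% of 16435 genes were called in either direction. At an unadjusted p under 0.05 there was 1 higher and 0 lower (1.66% and 1.84% of all genes). With DESeq2 on the same sums the 1 gene whose unadjusted p was below 0.05 was Psmb8, lower in Mut. At that limit 1196 of all 16435 genes were higher and 884 lower. By the DESeq2 adjusted p 0 subunit genes passed, the lowest being 0.272, while 367 genes in all were higher and 299 lower. The median log2 fold change of the 37 genes was 0.05, and over all genes it was 0.00. Within females the median log2 ratio was -0.05 and within males 0.15. Ratios above 0 in both sexes were found for 9 genes (25.1% of all genes), ratios below 0 in both for 6 (25.0%), and opposite signs for 22 (49.2%).

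Large ratios were rarer in the family than among all genes. A log2 ratio of 1 or more in size was reached by 5 of 37 genes in females, where 41.4% of all genes reached it, and by 3 of 37 in males, where 34.1% did. Among genes at a mean of 50 CPM or more, 4 of 34 subunit genes reached it in females (33.0% of 4226 genes) and 2 of 34 in males (18.7%). That limit is a floor only. The subunit genes and all genes were not matched for level or for the number of cells carrying them. No subunit gene reached it with the same sign in both sexes, which 5.11% of all genes did upwards and 3.77% downwards. The female genes past 1 were Psmd10 (4.27), Psmc2 (1.39), Psmd3 (1.04), Psmd4 (-1.31) and Psmb3 (-1.42), and the male ones Psmd11 (1.07), Psmb10 (-1.03) and Psmb8 (-2.70).

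The core particle genes showed no common direction. Of the 14, 3 were higher in both sexes (Psmb2, Psmb4 and Psmb6), 2 lower in both (Psma2 and Psmb3) and 9 opposite. Their log2 fold changes over both sexes lay between -0.77 (Psmb3, SE 0.48, edgeR unadjusted p = 0.175) and 0.20 (Psmb2). Psmb6 was at 567 and 402 CPM in the WT female and male sums and at 625 and 419 CPM in the Mut ones, a fold change of 0.10 (SE 0.31). Psmb5 was at 492 and 219 CPM in WT and 280 and 306 CPM in Mut (fold change -0.17, SE 0.47), and 58.0% of its WT female counts came from cell 7. Psmb7 was at 91.0 and 121 CPM in WT and 107 and 102 CPM in Mut (-0.01, SE 0.50).

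The 6 ATPase genes of the regulatory particle all had fold changes above 0, as the 3 assembly chaperones also had. Among all genes 8213 of 16435 lay above 0. The ATPase fold changes ran from 0.17 (Psmc4) to 1.09 (Psmc2), and 5 of the 6 were higher in both sexes, which 25.1% of all genes were. Psmc4 was the other, at 0.56 in females and -0.23 in males. The count of 5 was the same with each of the 62 cells left out in turn. The 6 genes were measured in the same 4 sums, so they are not 6 replicates, and none passed the test.

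Psmc2 (chr5:21785283-21803787, plus strand), an ATPase of the ring that threads substrates into the core, had the smallest edgeR p of the family, while with DESeq2 that of Psmb8 was smallest (unadjusted p = 0.0316) and that of Psmd10 next (0.0638). Its level over cells had a median of 6.12 CPM in the 9 WT female cells (2.19 to 433), 132 CPM in the 19 WT male cells (4.11 to 662), 350 CPM in the 19 Mut female cells (2.22 to 736) and 263 CPM in the 15 Mut male cells (0.518 to 1364). Both Mut medians were above both WT medians, and the ranges overlapped. Cells at 10 CPM or more numbered 4 of 9, 16 of 19, 16 of 19 and 10 of 15 in that order, so more Mut male cells than WT male cells were below that limit. The scaled sums were 136 CPM (Poisson interval 133 to 139) and 163 CPM (160 to 165) in WT females and males, and 357 CPM (354 to 361) and 280 CPM (277 to 283) in Mut. The log2 fold change was 1.09 (SE 0.40, edgeR unadjusted p = 0.0453, adjusted p = 1.0). Leaving out 1 cell moved the fold change between 0.86 (without Mut male cell 16) and 1.597 (without WT female cell 9) and the unadjusted p between 0.0333 and 0.125, under 0.05 in 49 of 62 cases. Over 9 other settings the p lay between 0.0208 and 0.193, the last being DESeq2.

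Psmc5 (fold change 0.63, SE 0.39, p = 0.167) and Psmc6 (0.63, SE 0.38, p = 0.168), tested by edgeR in the same fit with adjusted p = 1.0, came next among the ATPases. Psmc3 stood at 0.50 and Psmc1 at 0.34. The other regulatory genes differed from the ATPases in sign or between the sexes. The base genes Psmd1, Psmd2 and Psmd4 had fold changes from -0.65 to -0.14. In the lid 7 of 8 genes had opposite signs in the sexes, with fold changes from -0.34 (Psmd6) to 0.44 (Psmd11). Psmd10, the assembly chaperone also called gankyrin, had the largest fold change above 0 (2.46, SE 3.22, edgeR unadjusted p = 0.481, and 1.36 without Mut male cell 19), from sums of 0.414 and 24.3 CPM in WT and 26.3 and 12.2 CPM in Mut. It was carried by 0 of 9 and 5 of 19 WT cells and by 5 of 19 and 2 of 15 Mut cells, and 79.9% of its Mut male counts came from cell 19.

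**Figure D5:**
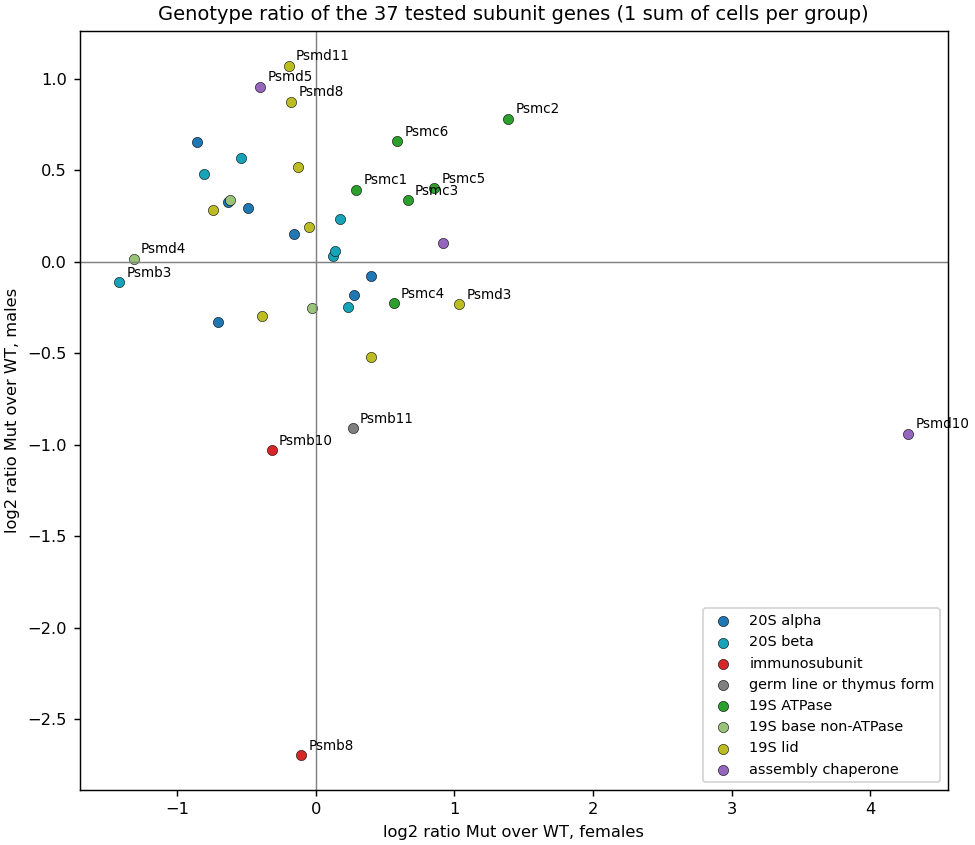
Log2 ratio of Mut over WT, from 1 scaled sum of cells per group with a pseudocount of 1 CPM, in males (vertical axis) against females (horizontal axis) for the 37 tested subunit genes, coloured by class. Of the 6 ATPase genes 5 lie at the upper right, and Psmb8, whose male value rests on 1 WT cell, lies lowest.

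Psmb8 and Psmb10 were the immunosubunits tested by genotype. Psmb8 had a fold change of -3.80 (SE 2.11, edgeR unadjusted p = 0.137, DESeq2 unadjusted p = 0.0316), and 95.95% of its WT male counts came from cell 20. Without that cell the fold change was -1.30, on sums of 5 counts in WT females, 2 in Mut females and 26 in Mut males. Psmb10 had sums of 147 and 101 CPM in WT and 118 and 48.8 CPM in Mut, a fold change of -0.68 (SE 0.53, edgeR unadjusted p = 0.254), and was lower in Mut in both sexes. The fold change was -0.25 without WT female cell 9, which held 52.2% of the WT female counts, and in females the Mut sum was then the higher one. It was carried by 17 of 28 WT cells (60.7%, interval 40.6 to 78.5) and 16 of 34 Mut cells (47.1%, 29.8 to 64.9), intervals that overlap. At least 1 microglial marker reached 10 CPM in 3 of 9 female and 11 of 19 male WT cells, and in 6 of 19 female and 3 of 15 male Mut cells. Without the 6 unmarked cells that carried 4 or more of them, the Psmb10 fold change was -0.89 and that of Psmc2 1.18.

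Between the sexes, in the same edgeR fit, 0 of the 37 genes were higher and 0 lower in males past the adjusted threshold (0.0% of all genes in either direction), and at an unadjusted p under 0.05 there were 0 in each direction (2.33% and 1.55% of all genes). With DESeq2 0 passed, where 448 of 16435 genes were higher in males and 263 lower. At a DESeq2 unadjusted p under 0.05, 1 was higher and 0 lower, where 1315 of all genes were higher and 739 lower. The median fold change of males over females was -0.03, with 14 genes above 0 (51.6% of all genes) and 23 below.

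Genes that work with the proteasome were read from a list of 31 found in the files (activators and an inhibitor, assembly chaperones, receptors and deubiquitinases, associated factors, transcription, and ubiquitin supply and delivery), of which 30 were tested. Among them 0 passed the edgeR genotype test in either direction. The sexes shared a direction for 9 of them, upwards in Mut for 5 (25.1% of all genes) and downwards for 4 (25.0%), and the median fold change was -0.02. At an unadjusted p under 0.05 stood 1, Ngly1, which encodes the enzyme that strips sugar chains from Nfe2l1 so that it becomes active (fold change 3.50, SE 1.26, edgeR unadjusted p = 0.0425, adjusted p = 1.0). At that limit 1.66% of all genes were higher and 1.84% lower. The Ngly1 sums were 0.226 and 5.12 CPM in WT and 2.43 and 60.7 CPM in Mut, and it was carried by 8 of 62 cells. Of its Mut female counts 73.28% came from cell 5, and of its Mut male counts 39.83% came from cell 2. Nfe2l1 itself had a fold change of 0.01 (SE 0.73), on sums of 47.7 and 46.1 CPM in WT and 60.1 and 37.3 CPM in Mut. Pomp, the chaperone that matures the core particle, had the highest median level of the assembly chaperones (317 TPM) and a fold change of 0.28 (SE 0.36). The ubiquitin gene Ubb, at a median of 7709 TPM, was carried by 62 of 62 cells and had a fold change of -0.05 (SE 0.24). In the contaminated WT male cells this list had a median difference of 0.47. Of its 30 tested genes 7 reached 1 or more, where 21.8% of all genes did, and 2 reached -1 or less, where 24.1% did. Nfe2l2, which was not tested by genotype and is not among the 30, differed by 4.795. In the contaminated female cell the median was -0.12, with 14 genes above 0 and 16 below. The 7 at 1 or more in males were Ddi2 (1.976), Psme2 (1.76), Rps27a (1.498), Txnl1 (1.476), Psmg3 (1.397), Psme1 (1.11) and Ngly1 (1.067). Psme1 and Psme2 are activator genes that interferon also raises, and in the contaminated female cell they differed by -0.4056 and 0.9406. Psme3, of the nuclear activator, differed by -0.79 in males.

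Of the 10 interferon and antigen presentation genes 0 passed the edgeR genotype test. The sexes shared a direction upwards in Mut for 1 gene (25.1% of all genes) and downwards for 3 (25.0%). H2-K1 was the 1 gene at an unadjusted p under 0.05 (fold change -5.77, SE 1.90, edgeR unadjusted p = 0.0323, adjusted p = 1.0). At that limit 1.84% of all genes were lower and 1.66% higher. H2-K1 was carried by 5 of 62 unmarked cells. Of its WT female counts 70.6% came from cell 3, and of its WT male counts 54.0% came from cell 10, a cell with 4 or more microglial markers.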

How the data were processed

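Patched single cells were sequenced from Nextera XT libraries, per the labels' protocols. The deposited tables give estimated counts per gene and cell, and a deposited normalized table gives TPM, both made by the authors with kallisto on GRCm38, per the submitters' processing notes (version not given in the sources used here). One count table holds all cells and one those that passed the authors' filter, neither its criteria nor what the contamination mark rests on being given in the sources used here. Columns of cells without labels here were not used (52 in the former, 44 in the latter). Use of strand in counting is not stated, so Psma4, Psma5, Psmb7, Psmb8, Psmb9, Psmc3, Psmd1, Psmd3, Psmd9 and Psmd13, whose exons overlap a gene on the opposite strand, are uncertain. Psmb5, Psmb6 and Psmb7 have pseudogene rows, in which a single value, in 1 cell, reached 10 CPM.

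The subunit genes and the gene and marker lists were chosen with earlier results of these data known. Counts were summed over the cells of a group, rounded and tested with edgeR 4.0.16 in R 4.3.3 (TMM scaling, minimum count 10, quasi-likelihood test, Benjamini-Hochberg over 16435 genes), with DESeq2 1.42.0 as an alternative. The common biological coefficient of variation of the fit was 0.958. Each SE was computed back from the test, as the size of the log2 fold change divided by the square root of the F value. The p-values measure the spread between 4 sums of cells, not between animals. Ratios within a sex and against contaminated cells use scaled CPM plus a pseudocount of 1 CPM. Values of single cells are unscaled CPM, and the contaminated comparison was scaled anew over 6 sums, so the WT values differ slightly from those of the genotype test. The genotype fit was also run on simulated counts, and its recovery there is not reported here. With 1 residual degree of freedom edgeR called 0 of 16435 genes for genotype and 0 for sex. The absence of calls among the subunit genes thus does not show that their levels are equal. Descriptions used Python 3.11.15, pandas 2.3.3, numpy 2.4.6 and scipy 1.17.1.

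Genes named with values are the immunosubunits and their counterparts, the 3 highest and 3 lowest tested genes by median TPM, those with an unadjusted p under 0.05 or otherwise the 5 smallest, those of size 1 or more in both sexes with 1 sign, and those not tested. Of the lists, genes with an unadjusted p under 0.05 are named. Others were named after their values were seen, as class members or for a count. The 50 CPM limit and the 250 bases were also set after seeing the data. Cells are numbered in the order in which they were submitted.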

Additional observations from a re-analysis of the deposited data

Results flagged for a closer look

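In 18 checks of a group of 4 to 10 cells for a value far from the others, 2 cells stood apart, and chance alone sets 1 in 20 such groups apart. Psmb6 was at 6.949 CPM in WT female cell 7, the lowest of 9 cells, of which the next was far above it. Psmb7 was at 264.0 CPM in WT male contaminated cell 4, the highest of 4 cells. Genes under 10 CPM in every cell of a group were not checked.

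For 3 genes the Mut and WT sums differed in opposite directions in the 2 sexes by 0.5 or more on the log2 scale, a limit set after seeing the data. Psma4 had -0.86 in females and 0.65 in males, Psmb1 had -0.54 and 0.56, and Psmd10 had 4.27 and -0.94. The differences between the sexes were not tested, since each group is 1 sum.

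Among the 9 labelled cells that the authors' filter removed, which entered no comparison, Psmb10 reached 10 CPM in 5 cells and Psmb8 and Psmb9 in 0. These cells carried a median of 22 subunit genes (10 to 31) on totals of 899625 to 6253603 counts.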

How the results depend on the processing

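With DESeq2, median-of-ratios scaling, library totals, no sex term, no filter, the removed cells added, or cells scaled to 1 total, and with 2 alternatives chosen after seeing the data (without cells of 4 or more microglial markers, or of at most 1 MGE marker), 0 subunit genes passed the test for genotype. Library totals moved the median of all genes to 0.15 in females, that of the subunit genes to 0.21 in females and 0.13 between the sexes, and the contaminated median to -0.50. Of 333 fold changes under 9 settings 21 changed sign. These were, with library totals, Psma3 (0.081), Psmb7 (0.077) and Psmd14 (0.025), and, with no sex term, Psmb1 (-0.0050). With no filter they were Psma3 (0.034) and Psmb7 (0.030), and with the removed cells added Psma6 (-0.033), Psmb1 (-0.065), Psmb7 (0.0088) and Psmd7 (-0.012). With cells scaled to 1 total they were Psma3 (0.21), Psma5 (-0.073) and Psmb1 (-0.085), and without cells of 4 or more microglial markers Psmb7 (0.0081), Psmd1 (0.11) and Psmd14 (0.15). Without cells of at most 1 MGE marker they were Psma1 (0.055), Psma3 (0.091), Psmb5 (0.42), Psmd7 (-0.051) and Psmd13 (0.20). The cause was not tested.

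Leaving out each of 62 cells in turn, 0 genes passed, and 16 fold changes changed sign, namely those of Psma1 (-0.30 to 0.11), Psma3 (-0.10 to 0.14), Psma4 (-0.27 to 0.41), Psma6 (-0.044 to 0.19), Psma7 (-0.19 to 0.10), Psmb1 (-0.093 to 0.090), Psmb4 (-0.050 to 0.54), Psmb5 (-0.28 to 0.41). The rest were Psmb7 (-0.10 to 0.16), Psmb11 (-1.39 to 0.058), Psmd1 (-0.26 to 0.36), Psmd2 (-0.26 to 0.11), Psmd6 (-0.62 to 0.048), Psmd7 (-0.024 to 0.33), Psmd13 (-0.35 to 0.35) and Psmd14 (-0.15 to 0.22). The female median ranged from -0.14 to 0.18. The number of genes higher in both sexes ranged from 7 to 14, the last without WT female cell 8, and that lower in both from 3, without WT female cell 9, to 7.
Leaving out each contaminated or unmarked WT male cell, the latter chosen after seeing the data, the Psmb8 difference ranged from 2.76 to 6.21. Psmb9 in contaminated WT male cells differed by 6.84 with a pseudocount of 0.1 CPM, as its construction implies for 3 counts. At a limit of 1 CPM Psmb8 was carried by 5 contaminated cells, Psmb10 by 51 unmarked cells, and the median unmarked cell carried 34 subunit genes. At 50 CPM Psmb9 was carried by 0 contaminated cells and their median was 32 subunit genes. At 1 count or more Psmb8 was carried by 23 and Psmb9 by 9 unmarked cells, Psmb10 by 62, Psmb8 by 5 contaminated cells, and the median unmarked cell held 36 subunit genes. No paired analysis was possible because the labels carry no replicate numbers and cells were numbered in order of submission. A comparison of protein sequences was not run. With 1 sum per group and sex, differences between animals are not measured.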
